A study of Homo sapiens with 7 samples.

Results

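Collagens are the genes whose symbol consists of COL, a type number, the letter A and a chain number, such as COL4A1. Of 33117 gene identifiers listed in the 7 libraries, 43 matched, 1 identifier for each symbol, and 13 of them reached a mean of 1 TPM over the libraries and were tested. TPM is a unit of transcript abundance, corrected for transcript length, in which every library has one common total. All libraries were made from the human line 769-P, which was established from a clear cell carcinoma of the kidney. PA cells, a term that the labels leave unexpanded, gave 3 libraries, and Lat-M cells, labelled latent metastatic, gave 4. The numbering of the Lat-M libraries splits them into 2 pairs, called here Lat-M1 and Lat-M2, and what the first number stands for is not stated in the labels. No allele, drug or time point is given for any group, and all cells grew in the same serum-containing RPMI medium. How the Lat-M cells were obtained, and whether each pair is 1 clone or 1 population, is not given in the labels. Whether the libraries of a group came from separate cultures is not stated either, so each p-value refers to variation among the libraries, part or all of which may be technical.

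A collagen molecule is a triple helix of chains encoded by separate genes, folded and hydroxylated in the endoplasmic reticulum before secretion. Type IV collagen forms the sheet-like network of basement membranes, on which kidney tubule cells rest, whereas fibrillar collagens such as type I build the fibres of connective tissue and are made mainly by fibroblasts. Other classes form beaded filaments (type VI), anchoring fibrils (type VII), multiplexins found in basement membranes (types XV and XVIII) or bind to fibril surfaces (the FACIT group, including types XII and XXII).

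The 2 main type IV genes start head to head on chromosome 13 and share the DNA between their starts, so that interval is shown first, followed by the 250 bases before the start of COL12A1, a collagen that rose in Lat-M1, and of COL6A3, the collagen lower in Lat-M2. The sequences are from the RefSeq promoter table of GRCh38.p14, which held 31 of the 43 collagens and 9 of the 13 tested. The interval lies at chr13:110307158-110307283 and is given on the plus strand, the strand of COL4A2, from the COL4A1 start to the COL4A2 start. The COL12A1 segment lies at chr6:75206054-75206303 and the COL6A3 segment at chr2:237414165-237414414, both given on the minus strand, which is the strand of each gene. Capitals mark matches, on either strand, to any of 5 motifs searched, none of which overlapped another in these segments: the CCAAT box, the GC box GGGCGG, the run CCCTCCCC, the TATA box TATAAA and the AP-1 motif TGANTCA.
COL4A1-COL4A2 interval: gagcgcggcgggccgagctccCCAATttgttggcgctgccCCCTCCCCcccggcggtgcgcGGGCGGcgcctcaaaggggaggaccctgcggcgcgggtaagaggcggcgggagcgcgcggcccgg
COL12A1: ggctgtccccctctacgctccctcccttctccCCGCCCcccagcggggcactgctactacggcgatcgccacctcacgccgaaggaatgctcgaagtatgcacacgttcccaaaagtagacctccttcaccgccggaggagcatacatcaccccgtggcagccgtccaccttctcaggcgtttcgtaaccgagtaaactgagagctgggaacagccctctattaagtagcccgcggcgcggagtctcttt
COL6A3: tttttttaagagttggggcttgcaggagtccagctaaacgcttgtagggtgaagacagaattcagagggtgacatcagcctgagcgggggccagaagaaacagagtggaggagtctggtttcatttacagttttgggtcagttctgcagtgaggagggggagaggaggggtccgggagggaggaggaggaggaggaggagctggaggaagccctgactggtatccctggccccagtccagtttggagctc

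The type IV interval was 126 bases long with 80.2% G and C, and held 1 match each to CCAAT, to the GC box and to the run CCCTCCCC. Among 27305 windows of that length before gene starts, 21.9% held CCAAT, 34.6% held the GC box and 7.69% held that run. The COL12A1 segment (61.2% G and C) held 1 GC box, present in 42.3% of windows of 250 bases and read here from the opposite strand. None of the 5 motifs was found in the COL6A3 segment (56.0% G and C). These matches describe the letters of the reference and were not tested against the expression values.

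In Lat-M1, collagen transcripts summed over the 43 genes were 1928 and 1970 TPM, against 611 to 746 TPM in PA and 869 and 720 TPM in Lat-M2. The Lat-M1 libraries lay apart from the others, and the ranges of PA and Lat-M2 overlapped. Type IV made up most of the total in each library: 80.4 to 80.9% of collagen TPM in Lat-M1, 64.8 to 69.4% in PA and 68.2 to 68.3% in Lat-M2. In TPM, the type IV sum was 1572 ± 16.8 (SD, n = 2) in Lat-M1, 462 ± 33.3 (SD, n = 3) in PA and 543 ± 72.0 (SD, n = 2) in Lat-M2. The fibrillar class summed to 44.1 ± 1.22 TPM in Lat-M1, 25.2 ± 2.51 TPM in PA and 25.1 ± 0.42 TPM in Lat-M2. The 26 collagens of the other classes summed to 333 ± 12.0, 208 ± 38.2 and 227 ± 32.3 TPM in Lat-M1, PA and Lat-M2. The ratio of the Lat-M1 mean to the PA mean was 3.40 for type IV, 1.75 for fibrillar and 1.60 for the other collagens. With libraries scaled by the median ratio of their genes these were 3.01, 1.55 and 1.42. The members did not move together. COL1A1 averaged 1.19 TPM in PA and 19.9 TPM in Lat-M1, and COL27A1 22.6 and 21.2 TPM. Among the other classes the unscaled ratio ran from 0.27, for COL26A1 and COL28A1 together, to 11.2 for the FACIT group. It was 1.12 for multiplexins (0.99 scaled). In bulk libraries, more cells that express a gene and more RNA per cell cannot be told apart.

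**Figure D1:**
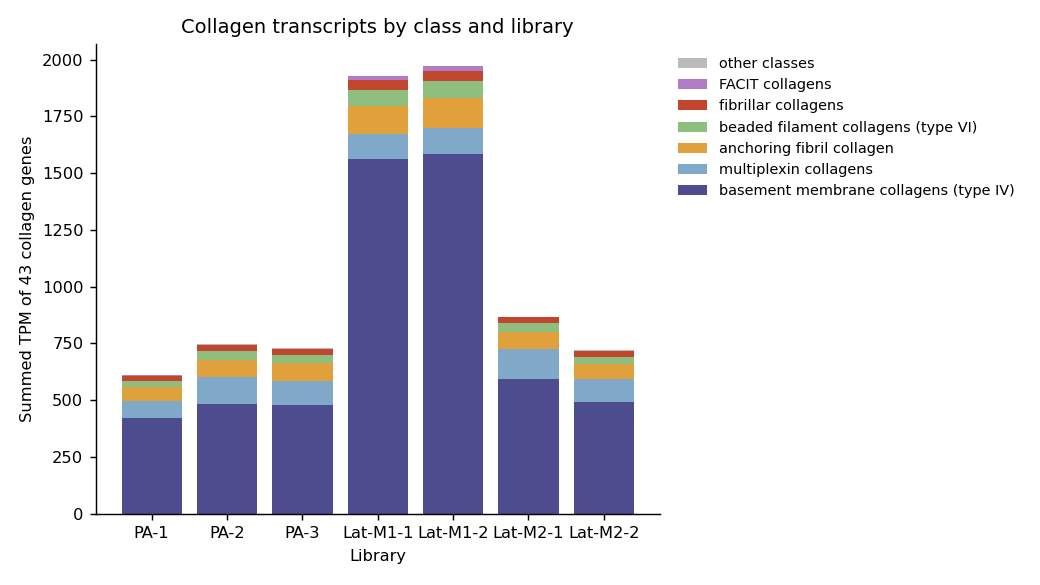
Summed TPM of the 43 collagen genes in each library (y axis, linear), stacked by class. The bars of Lat-M1-1 and Lat-M1-2 reach 1928 and 1970 TPM, most of it type IV, and the other 5 libraries lie between 611 and 869 TPM.

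Genes were compared on log2(TPM + 1), a scale that understates the change of low genes, with limma and Benjamini-Hochberg adjustment over all 16724 genes tested. Errors of log2 differences are standard errors. In Lat-M1 against PA, 8 of the 13 tested collagens rose and none fell: COL4A1, COL4A2, COL1A1, COL12A1, COL22A1, COL6A1, COL6A2 and COL7A1. Over all tested genes 44.8% changed in this comparison, 33.2% upward and 11.6% downward, and the median log2 difference was 0.16, against 1.00 for the tested collagens. COL12A1, COL22A1 and COL5A2 reached the minimum mean through Lat-M1 alone, so this count and median describe the tested genes and are not evidence about the family. When libraries were scaled by the median ratio of their genes, the median log2 difference of all genes was 0.0042 and the shares were 24.0% upward and 23.0% downward. With that scaling the same 8 collagens rose and COL27A1 fell.

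COL4A1 and COL4A2 had the highest TPM of all collagens in every library. COL4A1, which encodes one of the 2 chains of the common type IV molecule, stood at 200.5, 213 and 211 TPM in PA, 909.6 and 917 TPM in Lat-M1, and 255 and 212 TPM in Lat-M2. Its partner COL4A2 stood at 219, 267 and 263 TPM in PA, 645 and 661 TPM in Lat-M1, and 332 and 273 TPM in Lat-M2. For both genes the Lat-M1 libraries were the highest. The values of Lat-M2 and PA overlapped for COL4A1, and for COL4A2 both Lat-M2 libraries lay above all 3 PA libraries. COL4A1 ranked 78 and 84 among all symbols in the Lat-M1 libraries and between 453 and 526 in the other 5. The log2 difference between Lat-M1 and PA was 2.13 ± 0.08 for COL4A1 (4.39-fold in mean TPM, limma adjusted p = 2.36e-06) and 1.39 ± 0.11 for COL4A2 (2.62-fold, limma adjusted p = 9.13e-05). Between Lat-M2 and PA it was 0.16 ± 0.08 for COL4A1 (limma adjusted p = 0.210) and 0.27 ± 0.11 for COL4A2 (limma adjusted p = 0.140), neither past the threshold. Without the library Lat-M2-2, COL4A1 was past it in Lat-M2 against PA (0.29, limma adjusted p = 0.0217).

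COL4A5, a chain of another type IV molecule found in the glomerular and tubular basement membrane, showed another pattern. It stood at 3.76, 3.87 and 4.69 TPM in PA, 4.31 and 4.74 TPM in Lat-M1, and 6.22 and 5.73 TPM in Lat-M2. Both Lat-M2 libraries lay above the other 5. It rose in Lat-M2 against PA by 0.45 ± 0.11 on the log2 scale (limma adjusted p = 0.0381), and the difference between Lat-M2 and Lat-M1 was 0.34 ± 0.12 (limma adjusted p = 0.0692). The first of these calls was lost without PA-1, PA-2, or any of the 4 Lat-M libraries (log2 differences of 0.40 to 0.50 and limma adjusted p up to 0.192), with median ratio scaling (0.33, limma adjusted p = 0.0545), without a minimum (0.45, limma adjusted p = 0.0772), and with the replicate number as a block (0.53, limma adjusted p = 0.0682). It held in 4 of 13 alternatives. With median ratio scaling the difference from Lat-M1 passed the threshold instead (0.35, limma adjusted p = 0.0252). The chains that join COL4A5 in that molecule were under the minimum: COL4A3 averaged 0.0499 TPM in PA, 0.194 TPM in Lat-M1 and 0.11 TPM in Lat-M2, and COL4A4 averaged 0.161, 0.804 and 0.465 TPM. COL4A6 stayed below 0.1 TPM in every library.

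**Figure D2:**
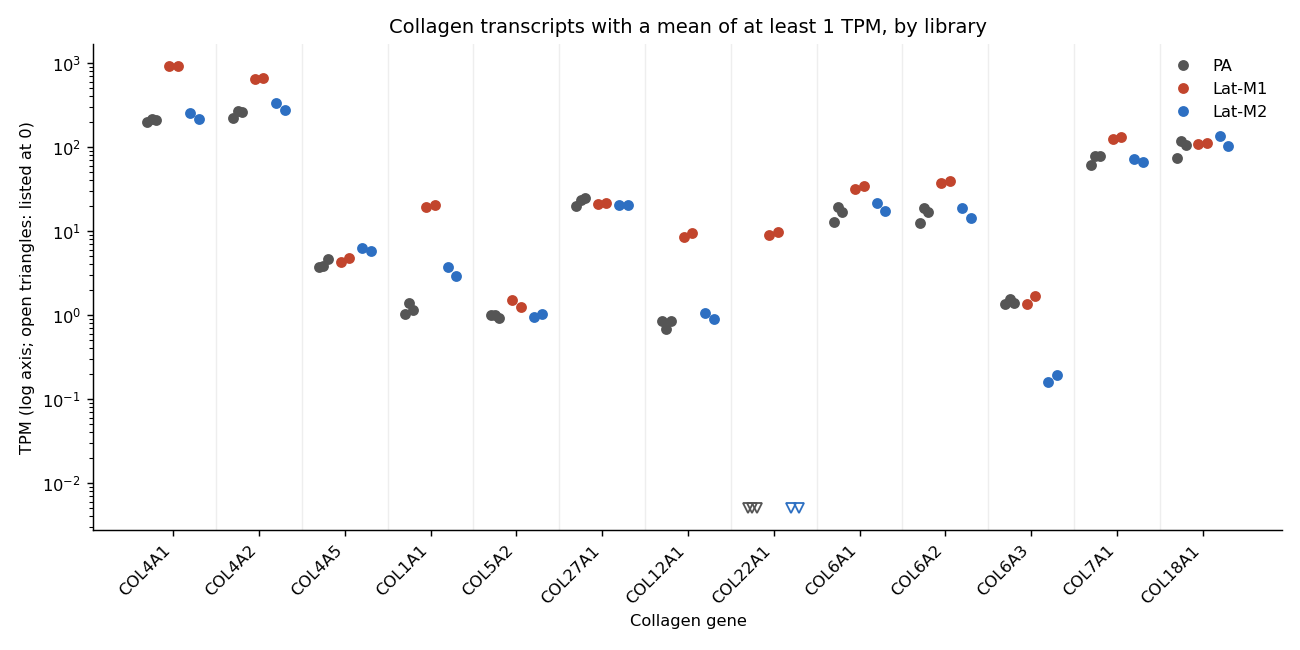
TPM of the 13 tested collagens (log y axis), 1 point for each library, coloured by group, with open triangles for libraries in which a gene was listed at 0. Lat-M1 points stand above the PA points for COL4A1, COL4A2, COL1A1, COL12A1, COL22A1, COL6A1, COL6A2 and COL7A1. They do so for COL5A2 as well, which did not pass the test. Of all tested genes, 48.9% had the Lat-M1 libraries above all PA libraries (33.6% with median ratio scaling). COL12A1, COL22A1 and COL5A2 reached the minimum mean through Lat-M1 alone. The Lat-M2 points of COL6A3 lie at 0.16 and 0.192 TPM, below all its others.

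Type VI collagen, whose microfilaments link basement membranes to the surrounding matrix, is assembled from COL6A1, COL6A2 and a further chain, most often COL6A3. The chains did not change together. COL6A1 stood at 12.8, 19.1 and 17.01 TPM in PA, 31.6 and 34.7 TPM in Lat-M1, and 21.4 and 17.2 TPM in Lat-M2. COL6A2 stood at 12.5, 18.6 and 16.6 TPM in PA, 37.0 and 39.5 TPM in Lat-M1, and 18.5 and 14.1 TPM in Lat-M2. Both rose in Lat-M1 against PA, COL6A1 by 1.00 ± 0.17 (limma adjusted p = 0.00405) and COL6A2 by 1.23 ± 0.18 (limma adjusted p = 0.00206) on the log2 scale, and in both the PA and Lat-M2 values overlapped. COL6A3 stood at 1.36, 1.53 and 1.40 TPM in PA, 1.36 and 1.67 TPM in Lat-M1, and 0.16 and 0.192 TPM in Lat-M2. PA and Lat-M1 overlapped, and both Lat-M2 libraries lay below the other 5, at a mean 8.13-fold lower than in PA and 8.60-fold below Lat-M1. On the log2 scale COL6A3 fell by 1.05 ± 0.17 in Lat-M2 against PA (limma adjusted p = 0.0121) and by 1.09 ± 0.19 against Lat-M1 (limma adjusted p = 0.00376). The pseudocount sets the size of that value, which was -2.47 with 0.1 added. Without Lat-M2-1 the difference from PA no longer passed (-1.03, limma adjusted p = 0.0640).

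Among the fibrillar collagens, COL1A1, the main chain of type I, rose in both pairs. It stood at 1.04, 1.37 and 1.16 TPM in PA, 19.2 and 20.6 TPM in Lat-M1, and 3.72 and 2.91 TPM in Lat-M2, and no 2 groups overlapped. The log2 difference from PA was 3.26 ± 0.12 in Lat-M1 (16.8-fold in mean TPM, limma adjusted p = 2.29e-06) and 0.98 ± 0.12 in Lat-M2 (2.79-fold, limma adjusted p = 0.00495). Its partner chain COL1A2 did not follow, at no more than 0.00922 TPM in any library. COL27A1, a fibrillar collagen of cartilage, was the most abundant of its class in PA. It averaged 22.6 TPM in the PA libraries (SD 2.53, n = 3), and Lat-M1 and Lat-M2 averaged 21.2 and 20.3 TPM (SD 0.305 and 0.136, n = 2 each). Its log2 difference from PA was -0.08 ± 0.09 in Lat-M1 (limma adjusted p = 0.491). With median ratio scaling it was -0.26 and passed the threshold (limma adjusted p = 0.0482). COL5A2, a chain of type V, stood at 0.961 ± 0.05 TPM in PA, 1.37 ± 0.16 TPM in Lat-M1 and 0.993 ± 0.06 TPM in Lat-M2. Its log2 difference between Lat-M1 and PA of 0.27 ± 0.16 did not pass (limma adjusted p = 0.214). The type V chains COL5A1 and COL5A3 were under the minimum. COL5A1 averaged 0.00872 TPM in PA, 0.542 TPM in Lat-M1 and 0.00455 TPM in Lat-M2, and COL5A3 averaged 0.00869, 0.0926 and 0 TPM. In a fit without the minimum both passed in Lat-M1 against PA (0.61 and 0.12), beside 23.6% of all genes.

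The FACIT collagens COL12A1 and COL22A1, which attach to the surface of collagen fibrils and, for COL22A1, to tissue junctions, were high in Lat-M1 and low elsewhere. COL12A1 stood at 0.848, 0.677 and 0.855 TPM in PA, 8.48 and 9.40 TPM in Lat-M1, and 1.06 and 0.897 TPM in Lat-M2. COL22A1 was at 9.04 and 9.66 TPM in Lat-M1 and was listed at 0 in all 3 PA and both Lat-M2 libraries, so no fold is given. COL12A1 rose in Lat-M1 against PA by 2.47 ± 0.13 on the log2 scale (11.3-fold in mean TPM, limma adjusted p = 1.26e-05). For COL22A1 the fitted log2 difference was 3.37 ± 0.17 (limma adjusted p = 8.10e-06), a size that depends on the 1 TPM added. COL12A1 in Lat-M2 was 0.14 ± 0.13 above PA, not past the threshold (limma adjusted p = 0.499).

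COL7A1, the anchoring fibril collagen that ties an epithelial basement membrane to the stroma, stood at 60.2, 78.2 and 77.3 TPM in PA, 125 and 132 TPM in Lat-M1, and 72.0 and 66.1 TPM in Lat-M2. Lat-M1 lay above the other groups, which overlapped. It rose in Lat-M1 by 0.84 ± 0.12 on the log2 scale (1.79-fold, limma adjusted p = 0.00121). COL18A1, the multiplexin from which endostatin is cut, averaged 99.2 TPM over the PA libraries (SD 22.0, n = 3), and Lat-M1 and Lat-M2 averaged 110.5 and 118 TPM (SD 2.10 and 21.8, n = 2 each). Its groups overlapped, and the differences from PA of 0.18 ± 0.21 and 0.26 ± 0.21 did not pass (limma adjusted p = 0.525 and 0.421). SLC19A1, which overlaps COL18A1 on the opposite strand, was at 2.64 to 5.05 TPM, and the antisense genes of COL4A2 and COL18A1 were at most 0.186 TPM in any library. Whether counting used strand is not stated.

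**Figure D3:**
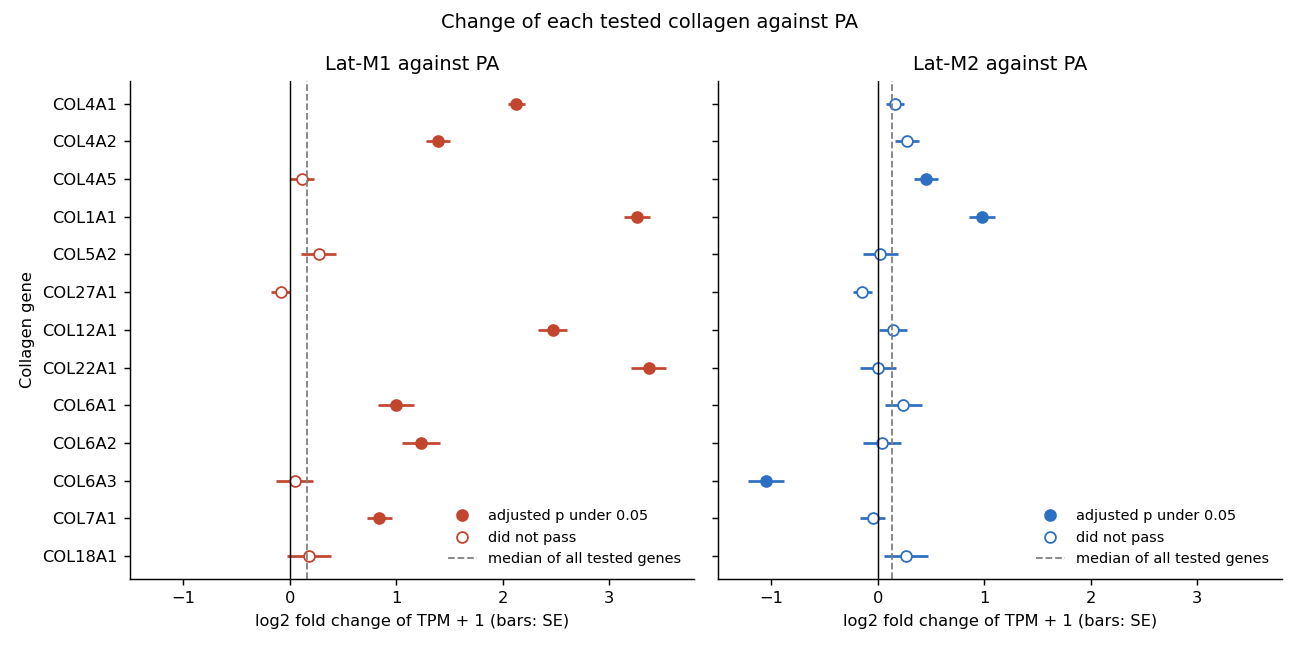
log2 difference of TPM + 1 from PA (x axis) for each of the 13 tested collagens, with bars for the standard error, for Lat-M1 (left) and Lat-M2 (right). Filled points passed a limma adjusted p of 0.05, 8 on the left and 3 on the right, and dashed lines mark the medians of all tested genes at 0.16 and 0.14.

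In Lat-M2 against PA, COL1A1 and COL4A5 rose and COL6A3 fell, 3 of 13 tested collagens beside 14.9% of all tested genes (12.7% upward and 2.24% downward). The median of the tested collagens was 0.14, the same to 2 decimals as that of all genes. With median ratio scaling COL1A1 rose and COL6A3 fell, beside 7.47% of all genes upward and 8.41% downward. In Lat-M2 against Lat-M1, 9 of 13 fell and none rose, beside 36.0% of all genes (16.0% upward and 20.1% downward). The 9 were COL6A3 and the 8 collagens that rose in Lat-M1 against PA, and these comparisons share the Lat-M1 libraries. The log2 differences of these 9 ran from -3.37 for COL22A1 to -0.76 for COL6A1, with a median over the tested collagens of -1.09 against -0.01 for all genes. This count and median also include the 3 collagens tested through their Lat-M1 level alone, and are a description. The COL6A1 difference (-0.76 ± 0.19, limma adjusted p = 0.0221) did not pass without Lat-M1-1, Lat-M1-2 or Lat-M2-2, with values of -0.61 to -0.82.

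With all 4 Lat-M libraries as 1 group against PA, limma called none of the 13 collagens, and 2.90% of all tested genes changed. At an unadjusted p under 0.05 there were 3, COL1A1, COL4A2 and COL6A1, and the lowest limma adjusted p was 0.116, for COL1A1 (2.12 ± 0.66). In that comparison the spread includes the difference between the Lat-M pairs. Without Lat-M2-2, COL1A1 passed (2.54, limma adjusted p = 0.0462). All 4 Lat-M libraries lay above all 3 PA libraries for COL1A1, COL4A2 and COL12A1, 3 of 13, a share near the 25.3% of all tested genes. With median ratio scaling COL1A1 alone did so, beside 11.4% of all genes, and COL27A1 was lower in all 4, beside 11.8%.

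Ratios of partner chains within a library do not depend on the scaling between libraries. They were not corrected for base composition, by which PA-1 differed from the other PA libraries. G and C made up 55.4% of the longest COL4A1 transcript and 62.0% of that of COL4A2. For COL6A1, COL6A2 and COL6A3 the shares were 63.5%, 66.4% and 53.2%. The ratio of COL4A2 to COL4A1 was 1.09, 1.25 and 1.25 in PA, 0.709 and 0.72 in Lat-M1, and 1.30 and 1.28 in Lat-M2. COL4A1 was thus the more abundant chain by TPM in Lat-M1 and COL4A2 in the other 5 libraries. The ratio of COL6A2 to COL6A1 was 0.974, 0.973 and 0.976 in PA, 1.17 and 1.14 in Lat-M1, and 0.863 and 0.821 in Lat-M2, with no overlap between the 3 groups. The ratio of COL6A3 to COL6A1 was 0.106, 0.0804 and 0.0823 in PA, 0.0431 and 0.048 in Lat-M1, and 0.00749 and 0.0111 in Lat-M2, again without overlap. No test was run on these ratios.

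**Figure D4:**
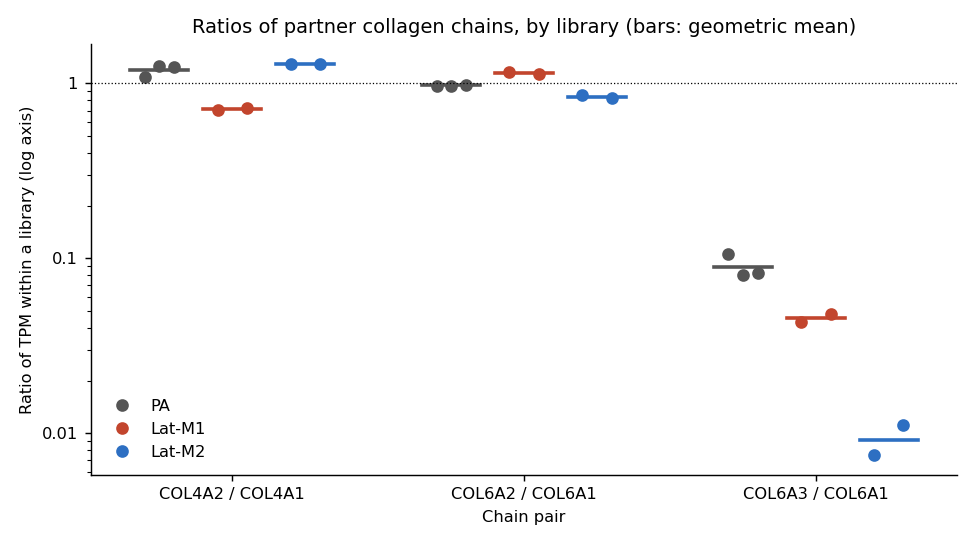
Ratio of the TPM of 2 partner chains within each library (log y axis), coloured by group, with bars at the geometric mean. COL4A2 over COL4A1 lies below 1 in Lat-M1 alone (0.709 and 0.72), and COL6A3 over COL6A1 is lowest in Lat-M2 (0.00749 and 0.0111).

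The other 30 collagens were below the minimum mean and were not tested. Of these, 15 stayed below 0.1 TPM in every library, 13 peaked between 0.1 and 1 TPM, and COL15A1 and COL28A1 reached 1 TPM in at least 1 library, with 1.44 TPM the highest value. They include COL3A1 and COL2A1, the chains of the fibrillar types III and II, and all listed short chain and transmembrane collagens. COL15A1, a basement membrane multiplexin, averaged 0.055 TPM in PA, 1.00 TPM in Lat-M1 and 0.0907 TPM in Lat-M2. COL28A1 ran the other way, at 0.99 TPM in PA, 0.239 TPM in Lat-M1 and 1.31 TPM in Lat-M2. COL19A1 averaged 0.756, 0.15 and 0.708 TPM. In a fit without the minimum, 19 of the 43 collagens passed in Lat-M1 against PA, and COL19A1 and COL28A1 were the 2 that fell. Of all genes in that fit, 23.6% passed, 17.8% upward and 5.85% downward. Some collagens that passed were near 0, such as COL13A1 and COL5A3 with Lat-M1 means of 0.0902 and 0.0926 TPM. COL15A1, COL19A1 and COL28A1 were singled out after their values were seen.

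Genes that fold, cut, bind or degrade collagen were taken from lists by role. In the folding and modification list, 13 of 17 tested genes rose and 1 fell in Lat-M1 against PA (10 and 2 with median ratio scaling), and 5 rose and none fell in Lat-M2 (3 and 4 with that scaling). The counts of this and the following lists stand beside 33.2% of all tested genes upward and 11.6% downward in Lat-M1 (24.0% and 23.0% scaled), and 12.7% and 2.24% in Lat-M2 (7.47% and 8.41% scaled). A gene can reach the minimum mean through the Lat-M libraries alone, as did DDR1 and SPARC, given below. The counts therefore describe the tested genes and are not evidence about the lists. PLOD2, a lysyl hydroxylase that prepares collagen for crosslinking, averaged 1.23 TPM over the PA libraries (SD 0.187, n = 3), and Lat-M1 and Lat-M2 averaged 58.6 and 4.95 TPM (SD 1.21 and 0.405, n = 2 each). Its log2 difference from PA was 4.74 ± 0.10 in Lat-M1 (limma adjusted p = 1.33e-07) and 1.42 ± 0.10 in Lat-M2 (limma adjusted p = 0.000319). The prolyl hydroxylases P4HA2 and LEPREL1 (also called P3H2) and the lysyl hydroxylase PLOD1 rose in Lat-M1 by 1.08 ± 0.06, 2.205 ± 0.11 and 1.06 ± 0.07. In Lat-M2 their differences were -0.05, -0.30 and 0.34, of which the PLOD1 value passed.

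Of 14 genes in the cleavage and crosslinking list, 6 were tested. All 6 rose in Lat-M1, with and without that scaling, while in Lat-M2 2 rose and 2 fell (2 and 3 scaled). BMP1, the procollagen C-proteinase, rose in Lat-M1 by 0.96 ± 0.07, its relative TLL1 by 1.23 ± 0.10 and the lysyl oxidase relative LOXL2 by 0.76 ± 0.08. LOXL4, another lysyl oxidase relative, rose in both, by 1.30 ± 0.08 in Lat-M1 and 1.28 ± 0.08 in Lat-M2. Of 6 tested receptor and uptake genes, 5 rose in Lat-M1 (4, with 1 lower, when scaled), and in Lat-M2 1 rose and 1 fell (1 and 2 when scaled). DDR1, a receptor tyrosine kinase for collagen, averaged 0.122 TPM in PA, 10.0 TPM in Lat-M1 and 3.48 TPM in Lat-M2, and rose in both, by 3.29 ± 0.14 and 1.99 ± 0.14. The collagen uptake receptor MRC2 rose by 2.54 ± 0.09 in Lat-M1 and fell by 0.34 ± 0.09 in Lat-M2. ITGA1, the alpha chain of a collagen-binding integrin that prefers type IV, rose in Lat-M1 by 1.97 ± 0.12, and its difference in Lat-M2 was -0.13 ± 0.12.

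Among 10 tested basement membrane partners, 4 rose and 3 fell in Lat-M1, with or without scaling, and 5 rose and none fell in Lat-M2 (2 and 1 scaled). The 4 of 10 upward in Lat-M1 is near the 33.2% of all genes. The laminin chains LAMB3 and LAMC1 rose in Lat-M1 by 1.71 ± 0.10 and 0.67 ± 0.06, whereas the laminin chain LAMA3 fell by 0.36 ± 0.09. NID1, which links laminin to type IV collagen, fell by 0.47 ± 0.06 in Lat-M1 and rose by 0.26 ± 0.06 in Lat-M2, the latter not past the threshold when scaled (0.10). Of 4 tested collagen-cleaving proteinases, 1 rose and 2 fell in Lat-M1 (1 and 3 scaled), and 1 rose and 1 fell in Lat-M2 (none and 1 scaled). MMP1, the interstitial collagenase, averaged 521 TPM over the PA libraries (SD 17.5, n = 3), and Lat-M1 and Lat-M2 averaged 16.4 and 90.7 TPM (SD 1.29 and 6.65, n = 2 each). It fell by 4.90 ± 0.07 in Lat-M1 and by 2.51 ± 0.07 in Lat-M2. MMP14, a membrane-bound collagenase, fell by 1.27 ± 0.10 in Lat-M1 and was 0.38 ± 0.10 higher in Lat-M2, while the gelatinase MMP2 rose by 2.31 ± 0.19 in Lat-M1. SPARC, a collagen-binding glycoprotein and the 1 tested member of the fibril-associated list, averaged 0.0827 TPM in PA, 9.19 TPM in Lat-M1 and 9.54 TPM in Lat-M2.

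**Figure D5:**
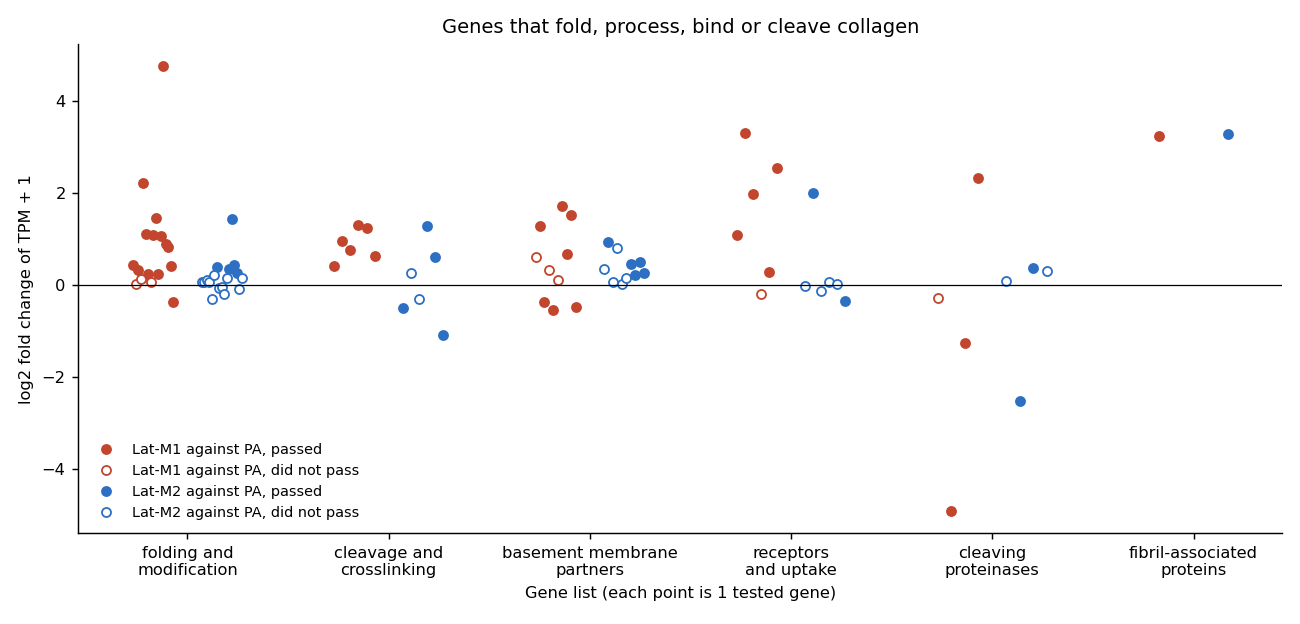
log2 difference of TPM + 1 from PA (y axis) for each tested gene of 6 lists, in Lat-M1 (red) and Lat-M2 (blue), with filled points for a limma adjusted p under 0.05. The 6 cleavage and crosslinking genes lie above 0 in Lat-M1, and the lowest point, at -4.90, is MMP1.

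Markers of fibroblasts and pericytes, the cells that make most fibrillar collagen, were low: of 9 listed genes, 8 stayed below 1 TPM in every library and PI16 was at 0. The list summed to 3.85 to 4.44 TPM in PA, 2.90 to 3.36 TPM in Lat-M1 and 3.99 to 5.19 TPM in Lat-M2. Most of it was RGS5, a pericyte gene and the 1 tested member. RGS5 was at 3.44 to 3.92 TPM in PA, 1.91 and 2.14 TPM in Lat-M1, and 4.77 and 3.81 TPM in Lat-M2. It fell in Lat-M1 against PA, with a log2 difference of -0.64 (-0.77 with median ratio scaling). PDGFRB was at 0.341 to 0.461 TPM in PA, 0.712 and 0.974 TPM in Lat-M1 and 0.359 and 0.185 TPM in Lat-M2. CSPG4 was at no more than 0.0214 TPM in PA, at 0.204 and 0.118 TPM in Lat-M1 and at 0 in Lat-M2. Their part in the collagen differences was not tested. Endothelial markers, all 5 below 1 TPM with CDH5 at 0, summed to at most 0.0346 TPM. Of 4 listed leukocyte markers, 3 were below 1 TPM and PTPRC was at most 0.0121 TPM. CD68, a lysosomal gene of macrophages and other cells, accounted for that list's sum of 45.6 to 48.3 TPM in PA, 14.3 to 15.5 TPM in Lat-M1 and 39.7 to 42.1 TPM in Lat-M2. Of the 12 renal epithelial and carcinoma markers, PAX8, the kidney lineage factor, was at 65.6 to 75.6 TPM in PA. It was at 80.6 and 87.9 TPM in Lat-M1, and at 79.0 and 76.7 TPM in Lat-M2. KRT18, KRT8 and EPCAM differed more between groups. KRT18 was at 270 to 285 TPM in PA, 259 and 267 TPM in Lat-M1, and 441 and 402 TPM in Lat-M2. KRT8 and EPCAM were also lowest in Lat-M1 and highest in Lat-M2. Of 7 tested, 2 rose and 2 fell in Lat-M1 (0 and 3 scaled), and 3 rose and 0 fell in Lat-M2 (2 and 1 scaled), beside the shares of all genes given above. The list summed to 2702 to 3040 TPM over the 7 libraries, most of it VIM, which mesenchymal cells also express, while CDH1, KRT19, LRP2 and CA9 were at no more than 0.156 TPM.

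The library PA-1 differed from PA-2 and PA-3 by base composition. Across the 7 tested collagens with over 60% G and C in their longest transcript (COL4A2, COL1A1, COL27A1, COL6A1, COL6A2, COL7A1 and COL18A1), PA-1 lay below the mean of PA-2 and PA-3 each time, with a median log2 difference of -0.36. Among the other 6 the median was -0.03. All tested genes showed medians of -0.23 and -0.0042 in the same classes. For Lat-M2-2 minus Lat-M2-1 the medians were -0.13 and -0.12 over all genes, and -0.28 and -0.05 over the collagens. For Lat-M1-2 minus Lat-M1-1 they were 0.08 and 0.07 over all genes, and 0.07 and 0.10 over the collagens. Without PA-1 the same 8 collagens rose in Lat-M1 against PA. Structural RNAs, 4 abundant non-coding transcripts, took 29.5 to 31.8% of TPM in PA, 18.6 to 21.9% in Lat-M1 and 22.9 to 27.7% in Lat-M2. With these 4 transcripts left out, the same 8 collagens rose in Lat-M1 against PA, by 0.65 (COL7A1) to 3.67 (COL22A1), and COL27A1 fell by 0.28, beside 22.0% of all genes upward and 23.8% downward. The files give no read totals, so the depth behind each value is unknown.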

How the data were processed

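RNA was sequenced from 7 libraries of the 769-P line, 3 of PA and 4 of Lat-M cells, made with either a TruSeq v2 or a NEBNext Ultra kit per the labels, with the kit of each library not stated. TopHat2 2.2.4 and hg19 are named in the submitters' processing notes, while the quantifier, annotation and filters are not given in the sources used here. The authors deposited 1 TPM value for each gene and library. The unit was inferred from the total of 1e+06 in each library. TPM keeps no depth.

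Genes averaging 1 TPM or more (16724 of 33117 identifiers) were tested as log2(TPM + 1) with limma 3.58.1 (R 4.3.3, trend and robust options) and Benjamini-Hochberg adjustment at 0.05. Lat-M1, Lat-M2 and PA were compared in a fit of 3 groups, and Lat-M with PA in a fit of 2. Every tested collagen is named, with library values for those with an absolute log2 difference of at least 1 or in a chain pair. COL4A5 and COL7A1 were given in full after their values were seen. Of the other lists, up to 4 tested genes with the smallest p were named, apart from 1 that is not reported here. The script was tested on simulated data. The members and lists were chosen with earlier results of these data known.

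GC content came from GENCODE v29, which matched all 43 collagens by identifier. Alternatives were a pseudocount of 0.1, no minimum, a minimum mean of 5 TPM, median ratio scaling, leaving out 4 structural RNAs, a replicate block, each library left out in turn, the 4 Lat-M libraries alone, and, for Lat-M against PA, limma's duplicateCorrelation (statmod 1.5.0) or the fit of 3 groups. Removing the trend of log2 values with GC content was added after seeing the data.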

Additional observations from a re-analysis of the deposited data

Results flagged for a closer look

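For 9 of the 13 tested collagens the change against PA differed between the Lat-M pairs by the limma contrast of Lat-M2 with Lat-M1. Of all tested genes, 36.0% did so. COL22A1 and COL12A1 reached the minimum mean through Lat-M1 alone, so this count is a description and not evidence about the family. The log2 difference in Lat-M2 minus that in Lat-M1 was -3.37 for COL22A1, -2.33 for COL12A1 and -2.28 for COL1A1. It was -1.97 for COL4A1 and -1.12 for COL4A2 of type IV, and -0.89 for COL7A1. In type VI it was -1.19 for COL6A2, -1.09 for COL6A3 and -0.76 for COL6A1. Of the 9, COL6A3 did not rise in Lat-M1 against PA (0.05 ± 0.17, limma adjusted p = 0.850), and its value in Lat-M2 was below that in PA. COL1A1 rose against PA in both pairs.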

How the results depend on the processing

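No collagen past the threshold changed direction under any alternative. In Lat-M1 against PA, the call was the same in 174 of 177 recomputed values, and the count of 8 became 19 of 43 (beside 23.6% of all genes) without a minimum, where more genes were tested. In Lat-M2 against PA, 164 of 177 were the same. The count of 3 became 1 (beside 24.5%) with a minimum mean of 5 TPM, under which COL6A3 and COL4A5 were not tested, and 5 (beside 23.1% of all genes) with the GC trend removed, where COL7A1 and COL27A1 fell as well (the cause was not tested). Leaving out 1 library gave 1 to 3, the lowest without Lat-M2-1. In Lat-M2 against Lat-M1, 183 of 190 were the same, and the count of 9 became 16 (beside 18.8%) without a minimum. In Lat-M against PA, the count of 0 became 10 (beside 36.5% of all genes, against 2.90%) when the contrast was taken in the fit of 3 groups, whose spread excludes the difference between the Lat-M pairs, and leaving out 1 library gave 0 to 1, with the 1 being COL1A1 without Lat-M2-2. Libraries with the same last number did not deviate together (correlations of -0.08 to 0.03). With that number as a replicate block the counts were 8, 2, 8 and 0 in the order above, beside 35.3%, 5.64%, 28.7% and 0% of all genes, COL4A5 and COL6A1 losing their calls. Where an omitted library left 1 in its pair, that one was assumed to vary like the other groups. Class sums moved by more than the SD between libraries in 45 of 66 values under rescaling, and the ratio of COL6A3 to COL6A1 moved in all 3 groups with 1 TPM added to both chains. Depth is unknown, so values near 0 have no detection limit.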
